A study of Mus musculus with 8 samples.

Results

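Lysyl oxidases and the enzymes that modify and fold collagen were examined as 10 genes of the raw count table: LOX, LOXL1, LOXL2, LOXL3, LOXL4, PLOD1, PLOD2, P4HA1, P4HA2 and SERPINH1. They were chosen by name, and all 10 were among the 13937 genes of the table and among the 13509 that were tested. The cells were primary brain astrocytes of C57BL/6 mouse pups aged 1 day, either WT or RGC-32 KO (KO below), grown for weeks in serum, shaken to remove other glia and neurons, and starved of serum overnight before stimulation. Cells of each genotype were either left without stimulation (control) or treated with TGF-β at 10 ng/ml for 24 h, which made 4 groups. Each group had 2 libraries, called 1 and 2 here. The labels call them biological replicates without naming separate litters or cultures, so p-values measure only the spread between these libraries, which may be technical. RGC-32 is the protein encoded by Rgcc, a mediator of TGF-β signaling, and the comparisons ask which transcripts respond to TGF-β and whether the response depends on RGC-32.

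Collagen is modified in several steps. Inside the endoplasmic reticulum, prolyl 4-hydroxylases (P4HA subunits with P4HB) hydroxylate prolines so that the triple helix is stable, and lysyl hydroxylases (the PLOD genes) hydroxylate lysines that later carry cross-links and sugars. The chaperone HSP47, encoded by SERPINH1, binds the folded helix. Outside the cell, the copper-dependent lysyl oxidases oxidize lysines of collagen and elastin, which then cross-link and stiffen the matrix. TGF-β is a known inducer of this machinery in fibroblasts.

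Total counts per library ran from 14920561 to 18956038. Within each group the replicates were further apart than sampling of reads allows (chi-square per degree of freedom between 6.37 and 10.5). RGCC, the targeted gene, had 80 and 94 counts in control WT cells, 215 and 362 in treated WT cells, 61 and 28 in control KO cells, and 64 and 26 in treated KO cells. The KO libraries were lower than the WT libraries without overlap in each condition but were not at 0. The astrocyte markers were expressed in all groups, with a summed level between 3440 and 5781 CPM (normalized counts, scaled to the TMM-normalized total of the library). Markers of other cells were also present, though not all that were listed. The count table held 5 of 10 neuron, 7 of 10 pericyte and smooth muscle, and 6 of 8 endothelial markers. No tested marker of any list was at 0 in both libraries of a group. Each library had 13851 to 13873 of the 13937 genes of the table above 0, so this was largely given beforehand.

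TGF-β raised 9 of the 10 genes in WT astrocytes and the same 9 in KO astrocytes, and P4HA2 was the exception in both. A gene passed the threshold with a log2 fold change of 0.6 or more in size and an adjusted p under 0.05, by edgeR's quasi-likelihood test with Benjamini-Hochberg adjustment over all genes tested. With Bonferroni's correction in place of this adjustment, 2 of the 10, LOX and PLOD2, passed in each genotype. Of all genes, 7.72% rose past it in WT and 6.61% in KO cells. The median log2 fold change of the 10 genes was 1.29 in WT and 1.22 in KO cells, where the median over all genes lay within 0.01 of 0 in both. The same 9 genes had both TGF-β libraries above both control libraries in each genotype, as did 35.4% of all genes in WT and 34.3% in KO cells. The 2 responses do not share control libraries. In bulk RNA, a change in the number of cells of a type and a change of RNA per cell cannot be told apart.

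**Figure D1:**
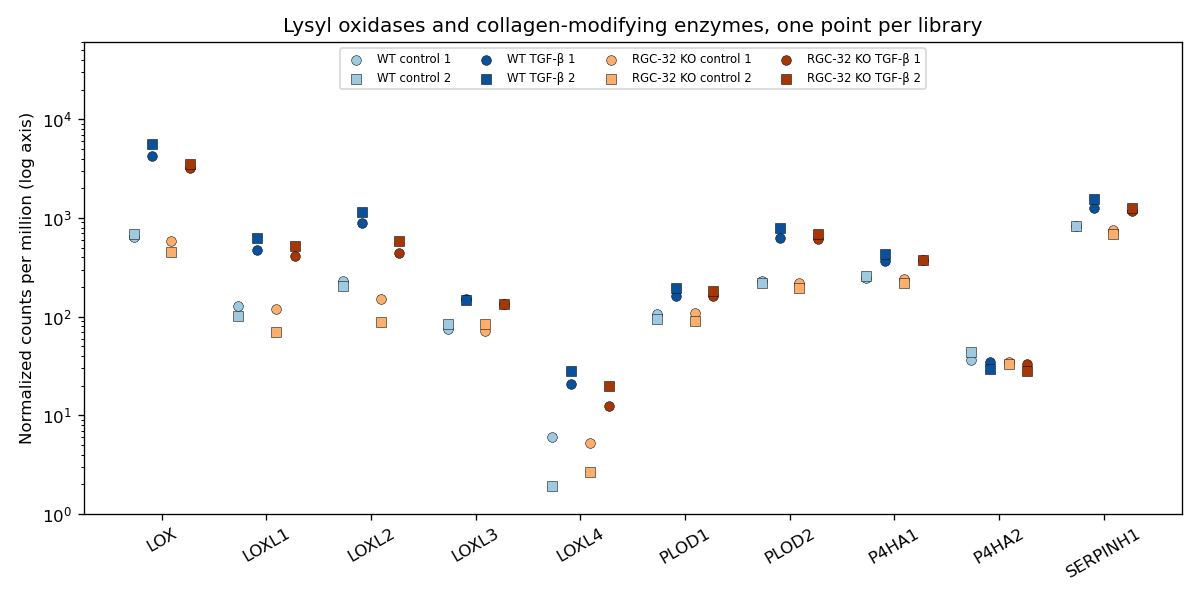
Normalized counts (CPM) of the 10 genes on a log axis, with 1 point per library; circles are replicate 1 and squares replicate 2, and colours mark the 4 groups. LOX goes from 447 to 695 CPM in the control libraries to 3241 to 5625 CPM in the TGF-β libraries, and P4HA2 stays between 28.2 and 44.1 CPM in every library.

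LOX encodes the founding lysyl oxidase, a secreted enzyme that acts on fibrillar collagen and elastin. Its level was 646 and 695 CPM in control WT cells, 4268 and 5625 CPM in treated WT cells, 582 and 447 CPM in control KO cells, and 3241 and 3479.6 CPM in treated KO cells. The treated libraries were all far above the control libraries, and the WT libraries were above the KO libraries of the same condition without overlap. The fold was 7.38 in WT (log2 2.88, SE 0.17, adjusted p = 9.23e-05 by edgeR) and 6.53 in KO cells (log2 2.71, SE 0.17, adjusted p = 0.00013 by edgeR).

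LOX transcripts made up 0.0671% and 0.0729% of all counts in control WT cells and 0.407% and 0.523% in treated WT cells. In order of counts LOX moved from places 122 and 108 among all genes in control WT cells to places 9 and 4 in treated WT cells, and from places 139 and 212 to places 15 and 17 in KO cells. The gene lies on the minus strand of chromosome 18 from 52516067 to 52529867 (GRCm38, the build the submitters' notes call mm10) and overlaps the antisense gene AC161119.1. The libraries were unstranded, so reads of the pair cannot be told apart where they overlap.

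LOXL1, which is known for its part in elastic fibre assembly, was at 127 and 101 CPM in control WT cells and 472 and 626 CPM in treated WT cells. In KO cells it was at 119 and 69.4 CPM in control and 411 and 519.8 CPM with TGF-β. The log2 fold changes were 2.27 (SE 0.26) in WT and 2.31 (SE 0.26) in KO cells. WT and KO libraries overlapped in both conditions.

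LOXL2 encodes a lysyl oxidase with scavenger receptor domains that is known to cross-link collagen IV of basement membranes. It was at 231 and 203 CPM in control WT cells, 879 and 1138 CPM in treated WT cells, 151 and 89.3 CPM in control KO cells, and 443 and 589 CPM in treated KO cells. Both WT libraries were above both KO libraries in each condition, and TGF-β libraries were above control libraries in each genotype. The fold with TGF-β was 4.64 in WT (log2 2.21, SE 0.25, adjusted p = 0.000765 by edgeR) and 4.30 in KO cells (log2 2.10, SE 0.25, adjusted p = 0.00118 by edgeR). Loxl2 lies on the plus strand of chromosome 14 from 69609068 to 69695834 and overlaps Gm27177 and Gm37513 on the other strand. Rgcc is on the same chromosome, 9.59 Mb away.

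LOXL3 and LOXL4 had the lowest FPKM of the lysyl oxidases. LOXL3, which oxidizes collagens and is needed in cartilage and palate, was at 75.1 and 83.6 CPM in control WT cells and 153 and 147 CPM in treated WT cells, and at 72.2 and 83.6 CPM and 136.0 and 135.8 CPM in the same conditions of KO cells. Its log2 fold change was 0.92 (SE 0.08) in WT and 0.80 (SE 0.08) in KO cells, the smallest rise among the lysyl oxidases. The 3′ end of Loxl3 meets Htra2 on the other strand, which shares 535 of its 4603 annotated exon bases, and reads there could come from either gene.

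LOXL4, a lysyl oxidase with scavenger receptor domains, had few reads. Its counts were 94 and 32 in control WT cells, 375 and 439 in treated WT cells, 82 and 45 in control KO cells, and 188 and 303 in treated KO cells. The treated libraries were above the control libraries, but control replicates differed from each other more than those of any other lysyl oxidase. The log2 fold change was 2.63 (SE 0.46, adjusted p = 0.00461 by edgeR) in WT and 2.06 (SE 0.48, adjusted p = 0.0157 by edgeR) in KO cells. Leaving out 1 library moved the WT value between 1.99, without control library 2, and 3.67, without control library 1. In KO cells the call was lost without control library 2 (log2 1.64, adjusted p = 0.0991 by edgeR) or without TGF-β library 2 (log2 1.66, adjusted p = 0.0916 by edgeR), and over all alternatives the adjusted p ran from 0.000431 to 0.0991.

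To compare lysyl oxidases with each other, the FPKM values were used, which are scaled to transcript length. LOX was first in every library, and LOXL4 last. LOX was 58.2% and 62.9% of the summed FPKM of the 5 lysyl oxidases in control WT cells and 71.4% and 71.9% in treated WT cells, against 61.3% and 64.0% and then 74.1% and 70.4% in KO cells. All 4 TGF-β libraries were above all 4 control libraries. The share of LOXL3 went the other way, from 4.74% and 5.94% to 2.17% and 1.72% in WT and from 5.68% and 8.68% to 2.59% and 2.44% in KO cells. LOXL2 held the second place in WT, with 17.99% to 20.97% in control and 14.7% to 15.1% with TGF-β. In KO cells its share was 13.2% to 15.6% in control and 10.08% to 11.97% with TGF-β, and LOXL1 was ahead of it in all 4 KO libraries.

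The summed FPKM was 216 and 211 in control WT cells, 1103 and 1241 in treated WT cells, 187 and 141 in control KO cells and 834 and 800.4 in treated KO cells. An exact two-sided permutation test of 4 TGF-β against 4 control libraries, both genotypes together, gave p = 0.0286 for the LOX share, the LOXL3 share and the sum, which is the smallest p that this design allows. Adjusted over the 18 exact permutation tests of shares, ratios and the sum, each was p = 0.103. The shares, ratios and the sum were chosen after the values were seen, so these p-values are not separate evidence. For the LOXL2 share, 17.2% ± 2.91 (SD, n = 4) in WT and 12.7% ± 2.33 (SD, n = 4) in KO cells, the same test between genotypes gave p = 0.0857 (adjusted p = 0.22, exact permutation test). This test pools control and treated libraries, so its spread includes the difference between them. Within each condition the LOXL2 shares of WT and KO libraries did not overlap, with 2 libraries per group.

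**Figure D2:**
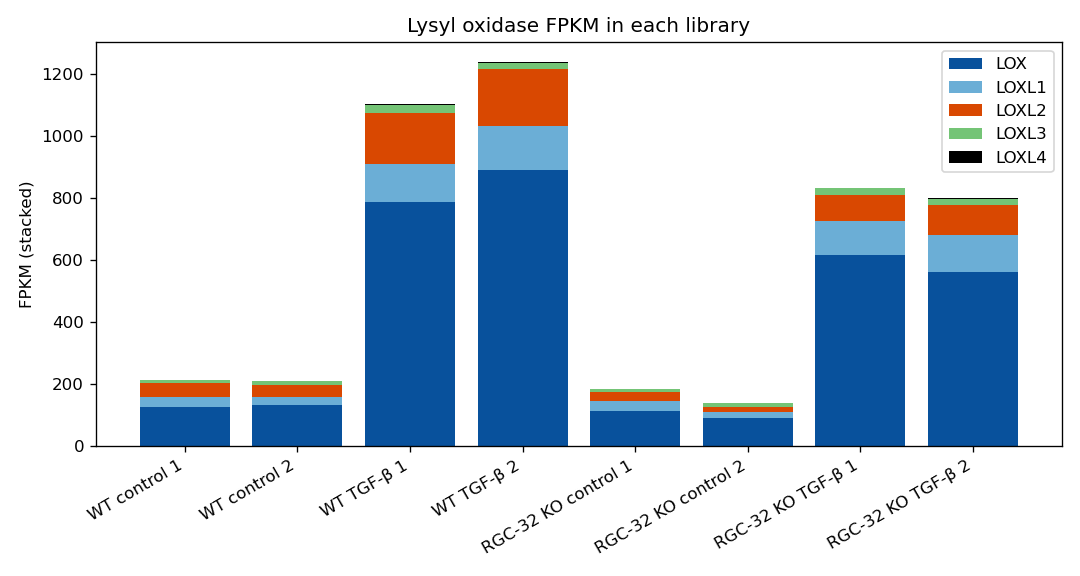
FPKM of the 5 lysyl oxidases in each of the 8 libraries, stacked from 0, so that the height of a bar is their sum. The sum is 1103 and 1241 in treated WT cells and 834 and 800.4 in treated KO cells, against 141 to 216 in the control libraries, and LOX is the largest part of every bar.

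PLOD1 and PLOD2 encode lysyl hydroxylases. LH2, the product of PLOD2, is known to hydroxylate the telopeptide lysines that set the type of cross-link, while that of PLOD1 acts on the helix. PLOD2 was at 232 and 217 CPM in control WT cells, 634 and 796 CPM in treated WT cells, 221 and 196 CPM in control KO cells, and 609 and 691 CPM in treated KO cells. Its fold was 3.18 in WT (log2 1.67, SE 0.12, adjusted p = 0.000169 by edgeR) and 3.11 in KO cells (log2 1.64, SE 0.12, adjusted p = 0.000204 by edgeR). PLOD1 went from 108 and 95.1 CPM to 162 and 194 CPM in WT and from 108 and 89.5 CPM to 160.3 and 181 CPM in KO cells. Its log2 fold changes were 0.81 (SE 0.12) and 0.79 (SE 0.12). WT and KO libraries overlapped for both genes in each condition.

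On the FPKM scale the ratio of PLOD2 to PLOD1 was 2.08 and 2.11 in control WT cells and 3.66 and 3.82 in treated WT cells, and 1.88 and 2.04 and then 3.65 and 3.45 in KO cells. The treated and control libraries did not overlap. The mean was 3.64 ± 0.149 (SD, n = 4) with TGF-β and 2.03 ± 0.101 (SD, n = 4) without (exact permutation test, p = 0.0286, adjusted p = 0.103). That p is the smallest the design allows, and the ratio was chosen after the values were seen, so it is not separate evidence.

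P4HA1 and P4HA2 encode catalytic subunits of prolyl 4-hydroxylase, and with TGF-β P4HA1 passed the threshold while P4HA2 did not. P4HA1 was at 248 and 257 CPM in control WT cells, 367 and 429.6 CPM in treated WT cells, 242 and 221 CPM in control KO cells, and 376 and 373 CPM in treated KO cells. Its log2 fold change was 0.66 (SE 0.08) in WT and 0.69 (SE 0.09) in KO cells, only just past the threshold. With upper quartile normalization the WT value was 0.57, without treated WT library 2 it was 0.52, and from FPKM values it was 0.52 to 0.53 in WT and 0.51 to 0.52 in KO cells, all of them under 0.6, with adjusted p between 0.00157 and 0.00906.

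P4HA2 was at 36.8 and 44.1 CPM in control WT cells, 34.9 and 29.2 CPM in treated WT cells, 34.5 and 33.4 CPM in control KO cells, and 33.1 and 28.2 CPM in treated KO cells. The treated libraries lay below the control libraries of the same genotype, by little, and no share of all genes for this direction is given. Its log2 fold change was -0.33 (95% interval -0.62 to -0.05, adjusted p = 0.0699 by edgeR) in WT and -0.15 (95% interval -0.44 to 0.14, adjusted p = 0.413 by edgeR) in KO cells. Neither interval reaches the rise of P4HA1. The FPKM ratio of P4HA1 to P4HA2 was 3.83 and 3.67 in control WT cells, 6.77 and 8.48 in treated WT cells, 4.51 and 4.10 in control KO cells, and 7.46 and 8.59 in treated KO cells. The means were 7.82 ± 0.866 (SD, n = 4) with TGF-β and 4.03 ± 0.367 (SD, n = 4) without (exact permutation test, p = 0.0286, adjusted p = 0.103). As with the PLOD ratio, that p is the smallest possible and follows a choice made after the values were seen.

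**Figure D3:**
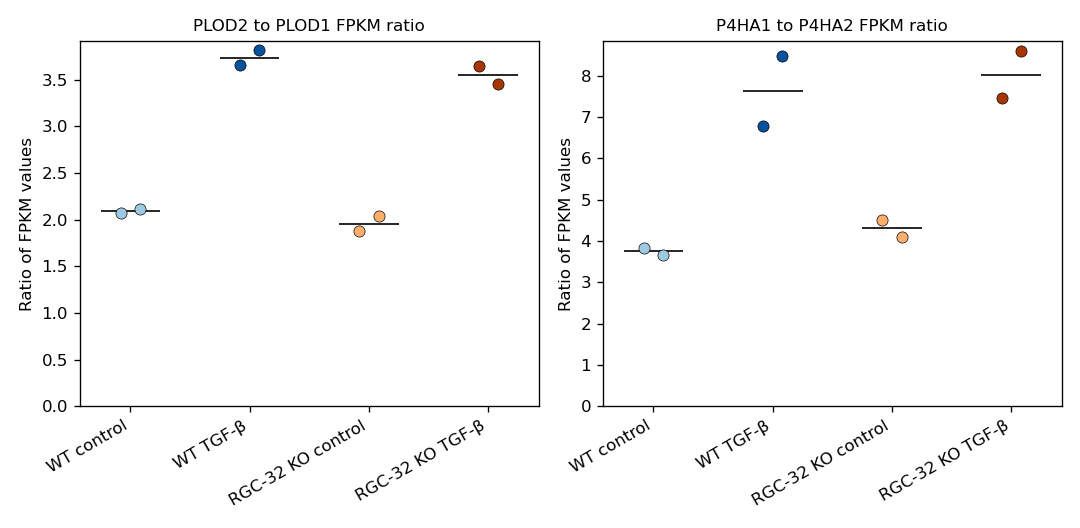
Ratio of FPKM values of PLOD2 to PLOD1 (left) and of P4HA1 to P4HA2 (right) in each group, with 1 point per library and a line at the mean of the 2 libraries; both axes start at 0. The ratio of PLOD2 to PLOD1 is 3.45 to 3.82 with TGF-β and 1.88 to 2.11 without, and that of P4HA1 to P4HA2 is 6.77 to 8.59 with and 3.67 to 4.51 without.

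The 250 bases before the RefSeq start were available for 5 of the 10 genes, P4ha1, P4ha2, Loxl4, Plod1 and Serpinh1 (RefSeq, GRCm38.p6). P4ha1 and P4ha2 are shown because one of these paralogs passed the threshold and the other did not, and Loxl4 because it had the largest fold change among the 5. Capitals mark the SMAD box (CAGAC, or GTCTG on the other strand) and the core bound by hypoxia-inducible factors (ACGTG, or CACGT on the other strand), which do not overlap each other here. Both strands were searched, and each sequence is given 5′ to 3′ on the strand of its gene. P4ha1 is chr10:59323046-59323295 (+), P4ha2 is chr11:54100674-54100923 (+), which lies inside the gene as GENCODE places it, since its GENCODE start is 54100095, and Loxl4 is chr19:42612807-42613056 (-).
P4ha1: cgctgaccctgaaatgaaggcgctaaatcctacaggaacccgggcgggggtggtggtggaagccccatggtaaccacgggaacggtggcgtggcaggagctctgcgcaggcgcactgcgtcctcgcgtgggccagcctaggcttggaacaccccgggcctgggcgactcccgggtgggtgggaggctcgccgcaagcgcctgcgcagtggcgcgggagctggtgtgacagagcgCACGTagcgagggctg
P4ha2: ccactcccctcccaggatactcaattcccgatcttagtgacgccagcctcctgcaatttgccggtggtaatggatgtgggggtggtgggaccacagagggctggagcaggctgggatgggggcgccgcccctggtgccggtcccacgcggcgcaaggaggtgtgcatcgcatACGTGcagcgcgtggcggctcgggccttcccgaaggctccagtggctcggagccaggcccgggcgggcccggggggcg
Loxl4: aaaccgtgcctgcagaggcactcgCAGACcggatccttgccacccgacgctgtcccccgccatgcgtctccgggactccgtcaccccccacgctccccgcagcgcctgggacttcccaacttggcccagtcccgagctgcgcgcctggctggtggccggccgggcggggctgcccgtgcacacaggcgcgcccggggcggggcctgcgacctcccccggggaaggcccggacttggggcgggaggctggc

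P4ha1 and P4ha2 each held 1 hypoxia core, starting 16 and 78 bases before the start, and no SMAD box, so these letters did not tell the paralogs apart in these windows before the RefSeq starts. Loxl4 held 1 SMAD box, 226 bases before the start. Plod1 also held 1 SMAD box, and Serpinh1 held 1 SMAD box and 1 hypoxia core. Among 32851 promoters of the same length, 42.2% held a SMAD box and 16.6% a hypoxia core. The GC content was 69.6% in P4ha1, 70.0% in P4ha2 and 76.0% in Loxl4.

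SERPINH1, the collagen chaperone, had the highest FPKM of the 10 genes in all 4 control libraries, from 304 to 348 FPKM. It was at 825 and 826 CPM in control WT cells, 1259.9 and 1546 CPM in treated WT cells, 757 and 683 CPM in control KO cells, and 1169 and 1269.7 CPM in treated KO cells. Its log2 fold change was 0.76 in both genotypes (SE 0.11 in each, adjusted p = 0.00189 in WT and 0.00236 in KO cells by edgeR). In WT it was 0.59, under the fold threshold, without TGF-β library 2 (adjusted p = 0.0129 by edgeR). In KO cells it was 0.59974 on the log2(FPKM + 1) scale, also under it.

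**Figure D4:**
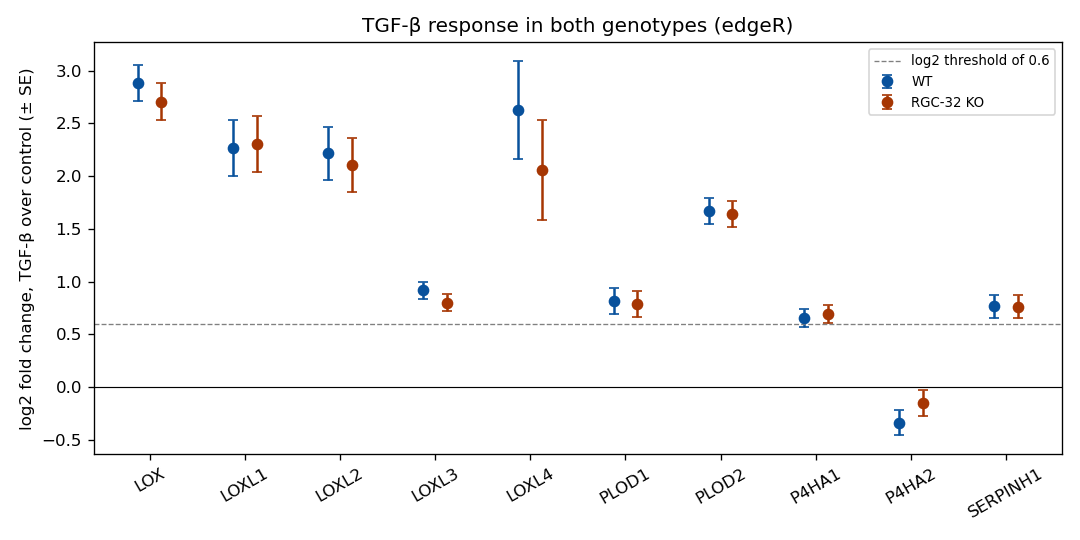
Log2 fold change of TGF-β over control for the 10 genes in WT and in KO astrocytes, from edgeR, with bars of 1 SE and a dashed line at 0.6. The values run from 2.88 in WT and 2.71 in KO cells for LOX to -0.33 and -0.15 for P4HA2, and the genotypes are farthest apart for LOXL4, at 2.63 and 2.06.

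The test of the difference between the 2 responses, the interaction of genotype and TGF-β, found none of the 10 genes past the threshold (edgeR, 0% of all genes) and none at an unadjusted p under 0.05, by edgeR or by DESeq2, against 2.82% of all genes by edgeR. LOXL4 had an unadjusted p under 0.05 in 1 of 18 alternatives, without control WT library 1, where its estimate was 1.61. The interaction estimate, the WT response minus the KO response, ranged from -0.19 for P4HA2 to 0.57 for LOXL4. It was 0.18 for LOX (95% interval -0.35 to 0.70) and 0.11 for LOXL2 (95% interval -0.69 to 0.91). For LOXL4 the interval was -1.01 to 2.15 and for P4HA2 -0.59 to 0.22. These intervals are wide, so a missed threshold does not show that the responses were alike.

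Between the genotypes, the smallest p-values were those of LOXL2 and LOX, both higher in WT, and neither passed the threshold. None of the 10 genes did without a replicate block, without or with TGF-β, where 0.0074% and 0.0222% of all genes were higher in WT by this rule. All 10 estimates were above 0, meaning higher in WT, in both conditions, from 0.01 to 0.86 without TGF-β and from 0.06 to 0.97 with it. The median of the 10 was 0.16 and 0.17, against 0.01 and 0.00 over all genes. At an unadjusted p under 0.05, LOX and LOXL2 were higher in WT in each condition, by edgeR and by DESeq2, where edgeR gave 3.8% of all genes without and 7.03% with TGF-β. LOXL2 kept an unadjusted p under 0.05 in all 19 alternatives in each condition. LOX, with an unadjusted p = 0.0459 by edgeR without TGF-β, lost it there in 7 of 19 alternatives, among them RLE normalization and leaving out either control WT library, and with TGF-β in 2 of 19, without treated WT library 2 or treated KO library 1. Among these 19 alternatives was 1 chosen after seeing the data, in which replicate numbers crossed between control and treated libraries served as a block. LOXL2 alone of the 10 then passed the threshold with TGF-β (adjusted p = 0.0212 by edgeR). In each condition, 5 of the 10 genes had an unadjusted p under 0.05. The shares of all genes above come from the fit without a block. None is given for the crossed block, so these counts are not read as particular to the 10 genes.

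Without TGF-β, LOXL2 was 1.81 times as high in WT as in KO cells (log2 0.86, SE 0.25, 95% interval 0.28 to 1.43, unadjusted p = 0.0091 and adjusted p = 0.58 by edgeR). With TGF-β it was 1.95 times as high (log2 0.97, SE 0.24, 95% interval 0.40 to 1.53, unadjusted p = 0.00435 and adjusted p = 0.219 by edgeR). LOX was 1.30 times as high without TGF-β (log2 0.38, SE 0.16, adjusted p = 0.724 by edgeR) and 1.47 times with it (log2 0.56, SE 0.16, adjusted p = 0.252 by edgeR). DESeq2 gave LOX an adjusted p of 0.00808 with TGF-β, at a log2 difference of 0.56, under the fold threshold. Across the alternatives, the adjusted p with TGF-β lay between 0.00808 and 0.839 for LOX and between 0.0212 and 0.729 for LOXL2.

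Leaving out a library moved the LOXL2 difference without TGF-β between 0.52, without KO library 2, and 1.28, without KO library 1, and that of LOX between 0.20 and 0.58 for the same libraries. With TGF-β, LOX was at 0.33 without WT library 2 and 0.75 without WT library 1. The study's own list of genes higher in WT after TGF-β includes Loxl2. That list was made with DESeq2 at a log2 limit of 0.6 and an FDR under 0.05. The call differs from the one here, since LOXL2 did not pass by edgeR without a block or by DESeq2. Why they differ was not tested. The list comes from these same libraries, so its direction is not independent evidence.

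Both WT libraries were above both KO libraries for 5 of the 10 genes without TGF-β, LOX, LOXL2, P4HA1, P4HA2 and SERPINH1, where this held for 17.4% of all genes. With TGF-β it held for 4 of the 10, LOX, LOXL2, LOXL3 and LOXL4, where it held for 22.4% of all genes. The log2 differences without TGF-β were 0.12 for P4HA1, 0.25 for P4HA2 and 0.20 for SERPINH1. With TGF-β they were 0.14 for LOXL3 and 0.58 for LOXL4 (95% interval -0.34 to 1.49).

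**Figure D5:**
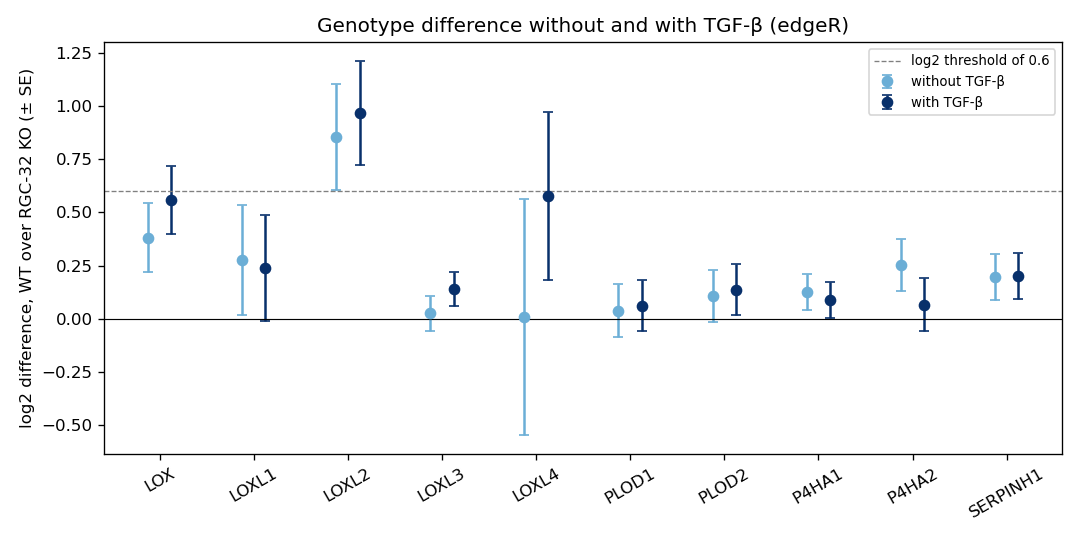
Log2 difference of WT over KO cells for the 10 genes without and with TGF-β, from edgeR, with bars of 1 SE and a dashed line at 0.6. LOXL2 is the only gene of the 10 above the line, at 0.86 and 0.97, and its adjusted p is 0.58 and 0.219.

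Over the 8 libraries, which fall into control and TGF-β libraries, the genes whose log2 CPM followed LOXL2 most closely were LAMB1 (Pearson r = 0.997), RAP2C (r = 0.993) and COL4A2 (r = 0.992), out of 12541 genes compared. LAMB1 and COL4A2 are chains of basement membrane laminin and collagen IV, and RAP2C is a small GTPase. Those that followed LOX most closely were CKAP4, KDELR2 and ADAM12 (r = 0.998 each), which are proteins of the endoplasmic reticulum, of retrieval to it, and a metalloprotease. These values describe the same 8 libraries and rest mainly on the TGF-β response.

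The partners of these enzymes were counted in lists. Of 8 genes of prolyl hydroxylation, 3 rose in WT and the same 3 in KO cells, P3H1, P4HB and P3H4. P3H1 is a prolyl 3-hydroxylase (log2 1.27 in WT and 1.28 in KO cells), P4HB is the subunit shared by the P4HA enzymes (0.86 and 0.85), and P3H4 is a partner of collagen lysyl hydroxylation (0.87 and 0.79). Of 5 genes that act on or with hydroxylysine, FKBP14 (1.00 and 1.07), PLOD3 (0.69 and 0.76) and FKBP10 (1.28 and 1.26) rose in both. FKBP10 and FKBP14 are prolyl isomerases of the endoplasmic reticulum, and FKBP10 assists PLOD2.

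Of 7 propeptide processing genes tested, TLL1 rose in both genotypes (1.24 and 1.22). BMP1, the protease that also frees LOX from its propeptide, passed in WT (0.61, adjusted p = 0.00674 by edgeR), while its value in KO cells was 0.46 (adjusted p = 0.0251 by edgeR), under the fold threshold. Of 9 cofactors and matrix partners, MFAP4, FN1, POSTN, FBLN5 and EMILIN1 rose in both. MFAP4, FBLN5 and EMILIN1 are proteins of elastic fibres (2.80, 1.22 and 0.93 in WT). FN1 encodes fibronectin, which binds LOX (1.07 and 0.94), and POSTN periostin, which aids its activation (1.21 and 1.56). ATP7A, the pump that loads copper into lysyl oxidases, had 0.39 and 0.34, under the fold threshold.

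Of 8 cross-linked substrates, 7 rose in WT and 6 in KO cells, with the smallest p-values in WT for COL5A1 (1.67 and 1.45), COL5A2 (1.503 and 1.44) and COL1A1 (1.31 and 1.20). COL3A1 did not pass in either (0.47 and 0.44). ELN, elastin, passed in WT (3.36, adjusted p = 0.0404 by edgeR) but not in KO cells (3.13, adjusted p = 0.0549 by edgeR), and its control libraries varied widely, at 136 ± 135 CPM (SD, n = 2) in WT. Of 10 known TGF-β targets, 8 rose in each genotype, among them SMAD7, SKIL and LTBP2 (1.35, 1.69 and 2.15 in WT).

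Several of the 10 genes are known hypoxia targets, so 11 other such genes were counted. In each genotype VEGFA rose (1.15 and 1.08), EGLN3 (-1.25 and -0.82), NDRG1 (-0.94 and -0.85) and ADM (-0.83 and -0.66) fell, and the other 7 did not pass. None of the genes on any of these lists passed in either genotype comparison or in the interaction.

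Some markers of other cells moved with TGF-β. Of 13 meningeal fibroblast markers tested, 4 rose in WT, COL1A1, COL1A2, ALDH1A2 and CRABP2, and 2 fell, PDGFRA and DCN. The summed level covers 14 markers, since it includes SLC6A13, which was too low to be tested. In WT it went from 4309 to 5518 CPM in control to 8862 to 10004 CPM. In KO cells 4 rose and 1 fell, and the sum went from 3534 to 3729 CPM to 6587 to 6741 CPM. Outside the collagens, the fibroblast genes DCN, LUM, FOXC1, FOXD1, TBX18, TWIST1 and PDGFRA had log2 fold changes below 0 in both genotypes. ALDH1A2 (1.04 and 0.86), CRABP2 (2.35 and 2.23) and OSR1 (0.53 and 0.31) had values above 0 in both. Of 10 pericyte and smooth muscle markers listed, 7 were in the count table, which lacked KCNJ8, ABCC9 and DES. Of these 7, 6 rose in each genotype, including ACTA2 (1.11 and 1.29) and PDGFRB (1.02 and 0.89), while RGS5 did not (0.17 and 0.03). The sum of the 7 went from 2540 to 2887 CPM to 5667 to 6421 CPM in WT. Most of it was ACTA2, at means of 2472 CPM in control and 5331 CPM in treated WT cells.

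The astrocyte markers summed to 4396 to 4632 CPM in control WT cells, 3440 to 3565 CPM in treated WT cells, 5071 to 5781 CPM in control KO cells and 4263 to 4555 CPM in treated KO cells. In both conditions the astrocyte sum was lower, and the fibroblast sum higher, in WT than in KO cells, without overlap. GFAP was the largest part of the astrocyte sum. Its means were 1659 CPM in WT and 2276 CPM in KO cells in control, and 1297 and 1920 CPM with TGF-β. GJA1 in both conditions and FABP7 in control had estimates on the side of WT. None of the 10 astrocyte markers passed between genotypes in either condition. The fibroblast sum rested on COL1A1, COL1A2 and COL3A1, which were also counted as cross-linked substrates and held 8311 to 9394 CPM in treated WT cells. The other 11 fibroblast markers summed to 658 to 722 CPM in control and 551 to 610 CPM in treated WT cells. In KO cells their sum was 578 to 602 CPM in control and 515 to 565 CPM with TGF-β. This sum was lower with TGF-β in each genotype, and with TGF-β the genotypes overlapped. DCN was its largest part, at means of 319 CPM in control and 208 CPM in treated WT cells. The means of ALDH1A2, CRABP2 and OSR1 were higher with TGF-β in both genotypes. Of the 10 astrocyte markers, 2 fell in WT and 1 in KO cells with TGF-β. Of 9 ependymal markers, 6 and 3 fell. Of 12 markers of microglia or macrophages, 1 rose in each genotype, as did 1 of 5 neuron, 1 of 6 endothelial and 1 of 8 oligodendrocyte lineage markers. Endothelial falls were 1 in WT and 2 in KO cells, and oligodendrocyte lineage falls 1 in each. Of all genes, 7.72% rose in WT and 6.61% in KO cells. No share of all genes that fell is given, so these falls are not read as particular to the markers. The part of these markers in the values of the lysyl oxidases and collagen-modifying enzymes was not tested.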

How the data were processed

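Bulk RNA of the 8 libraries had been sequenced unstranded. The authors aligned reads with STAR to mm10, per the labels, and deposited raw counts per gene symbol, not normalized. The authors also deposited FPKM values from Cufflinks, used here for comparisons between genes and as an alternative. Their versions are not given in the sources used here. The 2 deposited tables of the authors' own comparisons hold their fold changes, p-values and annotation and were not used.

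The fit was made with edgeR 4.0.16 (R 4.3.3): filterByExpr, TMM normalization, and 1 quasi-likelihood model with 4 group means over all 8 libraries. The p-values were adjusted by the Benjamini-Hochberg method over 13509 genes. The study's fold limit was kept, an absolute log2 fold change of 0.6, with an adjusted p of 0.05. The study names a false discovery rate after Bonferroni's correction, which is an alternative here. SE comes from the test statistic. The study used DESeq2, here an alternative (DESeq2 1.42.0), as was limma 3.58.1. FPKM values were tested as log2(value + 0.1) or log2(value + 1). For log2 CPM the prior count was 2. Scripts were tested on simulated counts first. Among the gene names, 21 had become dates and were kept without a guess.

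All 10 genes are named with every library, genes of the lists by the smallest p in the WT response (2 to 4 per list, plus genes named for their role after their values were seen), and the 3 genes most like LOXL2 and LOX by Pearson r. The genes and lists were chosen with earlier results of these data known, and the shares and ratios after the values were seen. Positions come from GENCODE M21 (GRCm38).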

Additional observations from a re-analysis of the deposited data

How the results depend on the processing

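Among the 10 genes, the count past the threshold was 9 in each TGF-β response and 0 in each genotype comparison and in the interaction, and it stayed within 1.5 times of that under the alternatives run, with 2 exceptions. Bonferroni's correction left 2 genes past the threshold in WT and 2 in RGC-32 KO, by its own construction. Whether replicate numbers pair libraries cannot be told, since each group has only 2 libraries and no label gives what a number shares. The deviations of same-numbered libraries correlated at -0.34 between control and TGF-β in WT and at -0.35 in RGC-32 KO. Between WT control and RGC-32 KO TGF-β the value was -0.48, and between WT TGF-β and RGC-32 KO control -0.51. It was 0.49 between WT and RGC-32 KO controls and 0.25 between the genotypes with TGF-β. The replicate number as a block gave 9, 9, 0, 0 and 0 genes. With the numbers crossed between control and TGF-β libraries, a block chosen after seeing the data, the counts were 9, 9, 0, 1 and 0. The 1 gene was LOXL2 in WT against RGC-32 KO with TGF-β, and no share of all genes is given for this block. Of 623 values of single genes under the alternatives, 605 kept their direction and side of the threshold, 11 lost the threshold, 1 gained it and 6 changed sign. All that changed sign were interaction estimates with a library left out, which ranged from -0.042 to 0.38 for LOX, -0.31 to 0.44 for LOXL2 and -0.051 to 1.61 for LOXL4. The cause was not tested. Of the 11, 6 were P4HA1, 2 SERPINH1 (1 in each genotype), 2 LOXL4 and 1 PLOD1, and PLOD1 in RGC-32 KO was at 0.59 on the log2(FPKM + 1) scale. FPKM values shifted the median of all genes by -0.11 to -0.13 in the TGF-β responses, so relative to that median the FPKM rises are larger by as much. Depth limits LOXL4 most, with 32 to 94 counts in its control libraries, the fewest of the 10 genes.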
